A study of Mus musculus with 24 samples.

Results

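The 10 genes described here encode lectin-type receptors of the natural killer gene complex, a cluster of related genes on mouse chromosome 6. They were selected by name from the table of normalized read counts, all 10 have a row, and they are 10 of 18762 genes. The names were chosen from earlier results on age in these libraries, in which *Klrb1c* and *Clec1a* had already stood out, so their differences between young and old mice are given as a description with no p-value, and nothing is read from whether a member passed the threshold of the fit over all genes. The cells were LSK-SLAM cells, the CD150+ CD48- part of lineage-negative bone marrow cells with Sca-1 and c-Kit, which is enriched for haematopoietic stem cells (HSCs), from wild-type C57BL/6 mice. Of these mice, 5 were young (4 to 5 months by the labels) and 7 were old (20 to 22 months), and no mouse was treated. The text of the study gives slightly higher ages for both groups. For each library 15000 cells were sorted, ribosomal RNA was removed, and 300 pg of RNA was used. The antibodies listed for lineage exclusion do not include one against NK1.1, the product of *Klrb1c*.

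Each mouse had 0.861 to 5.12 M recovered reads on genes (M stands for 1000000). A normalized read count is the reads of a gene per M after scaling, and 3 reads were worth 0.583 to 3.69, depending on the mouse. The label of each mouse ends in the letter A (2 young and 4 old mice) or B (3 young and 3 old mice), and what the letter stands for is not given in the sources used here. Mice with letter A had 0.861 to 3.11 M reads and mice with letter B had 3.23 to 5.12 M, so that depth and letter cannot be told apart. All 13 stem cell markers examined, among them *Kit*, *Hlf* and *Mecom*, were measured in these libraries. Their summed normalized read count was 2107 in old mouse 5, 3113 in old mouse 7 and between 3772 and 7278 in the others. The summed count of 16 myeloid markers was 4871 in old mouse 6 and between 552 and 1650 in the others. Results below are therefore also given without old mice 5 and 6, a choice made after their values were seen. Old mouse 7, with the next lowest sum of stem cell markers, was kept.

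Lectin-type receptors of this complex sit in the cell membrane and carry a domain related to that of C-type lectins. The Klr genes are known from natural killer (NK) cells, in which activating and inhibitory receptors are weighed against each other before a target cell is attacked. *Klrb1c*, *Klrb1b* and *Klrb1f* encode receptors of the NKR-P1 family, and the Clec2 genes encode lectin-like proteins that are ligands of that family, so that receptors and ligands are neighbours in the genome. *Clec1a*, *Clec1b* and *Clec12a* are known from endothelial cells, platelets and myeloid cells, respectively.

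All members lie on chromosome 6 of the mm10 build within 0.845 Mb. NKR-P1 genes resemble each other, which matters for the assignment of short reads, and a stretch of their coding sequence is therefore shown. Over the aligned coding bases (GENCODE vM21), *Klrb1c* was identical to *Klrb1a*, a paralogue that is no member, at 92.7%, to *Klrb1b* at 85.9% and to *Klrb1f* at 71.6%. The lines give 60 coding bases, 5′ to 3′, and capitals mark bases that differ from *Klrb1c*. They come from chr6:128784185-128784244 for *Klrb1c*, chr6:128618537-128618596 for *Klrb1a* and chr6:128818993-128819052 for *Klrb1b*, all on the minus strand, and from chr6:129053727-129053786 on the plus strand for *Klrb1f*.
*Klrb1c*: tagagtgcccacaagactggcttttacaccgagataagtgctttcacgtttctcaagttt
*Klrb1a*: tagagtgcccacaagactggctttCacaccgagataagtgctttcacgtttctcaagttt
*Klrb1b*: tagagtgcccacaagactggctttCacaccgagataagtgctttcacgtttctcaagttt
*Klrb1f*: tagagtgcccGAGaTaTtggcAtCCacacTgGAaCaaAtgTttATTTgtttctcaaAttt
In this stretch *Klrb1a* and *Klrb1b* differed from *Klrb1c* at 1 base each, and *Klrb1f* at 19 bases. It was chosen as the 60 bases inside 1 exon at which *Klrb1c* and *Klrb1b* were most alike, so it is not typical of their whole coding sequence. Across all exons, 17.0% of the 50-base words of *Klrb1c* and 27.2% of those of *Klrb1b* also occurred in another gene, mostly in *Gm44511*, an annotated readthrough transcript whose exons overlap both genes and which was listed at 0 in every mouse. No word of *Klrb1f*, *Klrd1* or *Klrk1* was shared, and at most 4.13% of the words of the other 5 members were, so that the values of *Klrb1c* and *Klrb1b* are the least certain of the 10 in this respect.

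Promoter windows of 300 bases (250 before to 50 after the start, RefSeq, GRCm38.p6) were listed for 8 of the 10 members and not for *Klrd1* and *Clec1a*. Those of *Klrb1c* and *Klrb1b*, neighbours whose levels in old mice differed as described below, are shown, with capitals for matches on either strand to AGGAAG (a core of ETS sites) and TGTGGT (a core of RUNX sites). The window of *Klrb1c* is chr6:128788592-128788891 and that of *Klrb1b* is chr6:128826266-128826565, both on the minus strand.
*Klrb1c*: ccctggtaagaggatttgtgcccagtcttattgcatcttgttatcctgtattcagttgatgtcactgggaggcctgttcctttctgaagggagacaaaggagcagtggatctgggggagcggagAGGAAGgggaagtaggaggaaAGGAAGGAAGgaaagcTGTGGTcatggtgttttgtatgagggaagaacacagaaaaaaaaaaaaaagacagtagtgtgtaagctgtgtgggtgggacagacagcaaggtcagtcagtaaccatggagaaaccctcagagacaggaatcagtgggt
*Klrb1b*: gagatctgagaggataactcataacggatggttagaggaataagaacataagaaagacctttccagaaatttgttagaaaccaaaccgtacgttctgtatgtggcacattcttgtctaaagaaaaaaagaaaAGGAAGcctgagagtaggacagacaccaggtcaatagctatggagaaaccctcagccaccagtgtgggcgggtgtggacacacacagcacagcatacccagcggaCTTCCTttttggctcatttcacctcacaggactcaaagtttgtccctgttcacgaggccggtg
*Klrb1c* held 3 matches to the ETS letters, 2 of which overlap each other, and 1 to the RUNX letters. *Klrb1b* held 2 matches to the ETS letters. A match to the ETS letters is found in 35.4% of 32851 promoters of this length, one to the RUNX letters in 16.8%, and one to AGATAA, the core letters of sites for GATA factors, in 11.2%. Among the other windows, *Clec12a* held 2 ETS matches and 1 RUNX match, *Klrb1f* 1 GATA and 1 ETS match, *Klrk1* 1 RUNX match, *Clec1b* 1 GATA match, and *Clec2d* and *Clec2i* none of the 3. These matches are letters in a window and say nothing of binding.

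Levels of the members differed widely. Per kb of exon, *Clec2d* had by far the highest mean normalized read count over all 12 mice (150), followed by *Clec1a* (33.9) and *Klrb1c* (10.5). The other 7 members lay between 1.01 per kb (*Klrk1*) and 4.82 per kb (*Klrb1f*). *Clec2d*, *Clec1a*, *Klrb1c* and *Clec12a* had a mean normalized read count of 10 or more and entered the main fits, whereas *Klrb1f*, at 9.75, and the other 5 members did not. *Clec2d* made up between 45.6% and 85.0% of the summed level of the 10 genes per kb in a mouse. Among the lower 7, neighbours in the order did not differ beyond their spread, as shown by *Klrd1* with 3.25 ± 2.20 (SD, n = 5) at the young age and 2.92 ± 2.89 (SD, n = 7) at the old age and *Clec12a* with 1.52 ± 0.761 (SD, n = 5) and 3.91 ± 3.98 (SD, n = 7), all per kb.

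**Figure D1:**
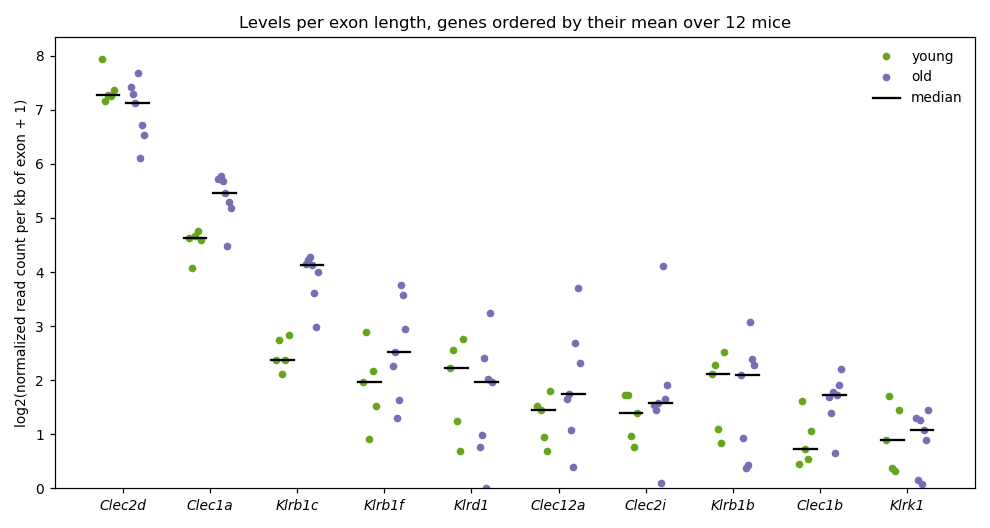
Levels per exon length of the 10 genes in each mouse, as log2(normalized read count per kb of exon + 1), with points for young (green) and old mice (purple) and bars for the medians. *Clec2d*, *Clec1a* and *Klrb1c* have the highest medians at both ages. The points of *Klrb1c* overlap those of several of the other 7 genes, which also overlap each other.

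Genes of a cell type that the sort should have removed give a scale for these low levels. The median level of 11 T cell genes per kb lay between 1.99 and 5.89 in mice with letter A and between 0.530 and 1.62 in mice with letter B. *Clec2d* and *Clec1a* exceeded every one of these T cell genes in 12 of 12 mice, and *Klrb1c* did so in 10 of 12. *Klrb1f* was above the T cell median in 12 of 12 mice and above every T cell gene in 5. The other 6 members were above that median in 9 (*Klrb1b*), 7 (*Clec12a*), 6 (*Klrd1*), 5 (*Clec1b*), 4 (*Clec2i*) and 2 (*Klrk1*) of 12 mice. For these 6 genes, a level in stem cells could therefore not be separated from that of T cell genes in the same libraries. The listed lineage antibodies include ones against T cell antigens and none against NK1.1. T cell genes therefore give no scale for reads from NK cells. For *Klrb1c*, *Klrb1f* and the other members above them, the comparison does not show a level in stem cells either.

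*Klrb1c* (ENSMUSG00000030325, chr6:128778485-128789215, minus strand) encodes NK1.1, an activating receptor that marks NK cells in C57BL/6 mice. Its normalized read counts in young mice 1 to 5 were 12.4, 16.8, 9.81, 12.4 and 18.2. In the old mice they ran from 20.3 to 54.8 with a median of 49.0. The 7 old mice all lay above the 5 young mice, and 0.291% of the 12354 genes whose mean was 10 or more were higher in old mice without overlap. Means were 13.9 ± 3.48 (SD, n = 5) and 43.4 ± 12.4 (SD, n = 7), a ratio of 3.12. The limma log2 fold change on log2(value + 1) was 1.54 ± 0.28 (SE). These values rest on 35 to 63 reads per young mouse and 36 to 252 reads per old mouse.

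Within the letters, the sizes of the difference in *Klrb1c* were as follows. The letter A means were 14.6 ± 3.10 for the young (SD, n = 2) and 36.9 ± 13.0 for the old mice (SD, n = 4). For letter B the corresponding means were 13.5 ± 4.31 (SD, n = 3) and 52.2 ± 2.95 (SD, n = 3). The log2 fold changes within letters were 1.22 ± 0.46 (SE) and 1.92 ± 0.35 (SE). The old mice with letter B lay close together, whereas those with letter A spread from 20.3 (old mouse 6) to 49.7 (old mouse 1). Without old mice 5 and 6, the mean of the other old mice was 50.1 ± 4.01 (SD, n = 5) and the log2 fold change was 1.80 ± 0.26 (SE). Old mice 5 and 6 had the lowest *Klrb1c* values of the old mice, 33.1 and 20.3. Leaving them out raises the mean and narrows the spread for that reason alone, so nothing is read from the rise.

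*Klrb1c* was the 1 member of the 4 tested that was called for age (limma with Benjamini-Hochberg adjustment over all genes, adjusted p under 0.05), where 0.0971% of all genes tested were called higher in old mice. Because this contrast chose the member, nothing is read from that count. The gene was no longer called when any 1 of young mice 1, 3, 4 and 5 or old mice 1, 2, 3, 4 and 7 was left out, and also with no filter on low values, with no trend in the variance, in mice with letter A alone and after rescaling by median ratios, while the log2 fold change stayed between 1.22 and 1.92 under every alternative tried.

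**Figure D2:**
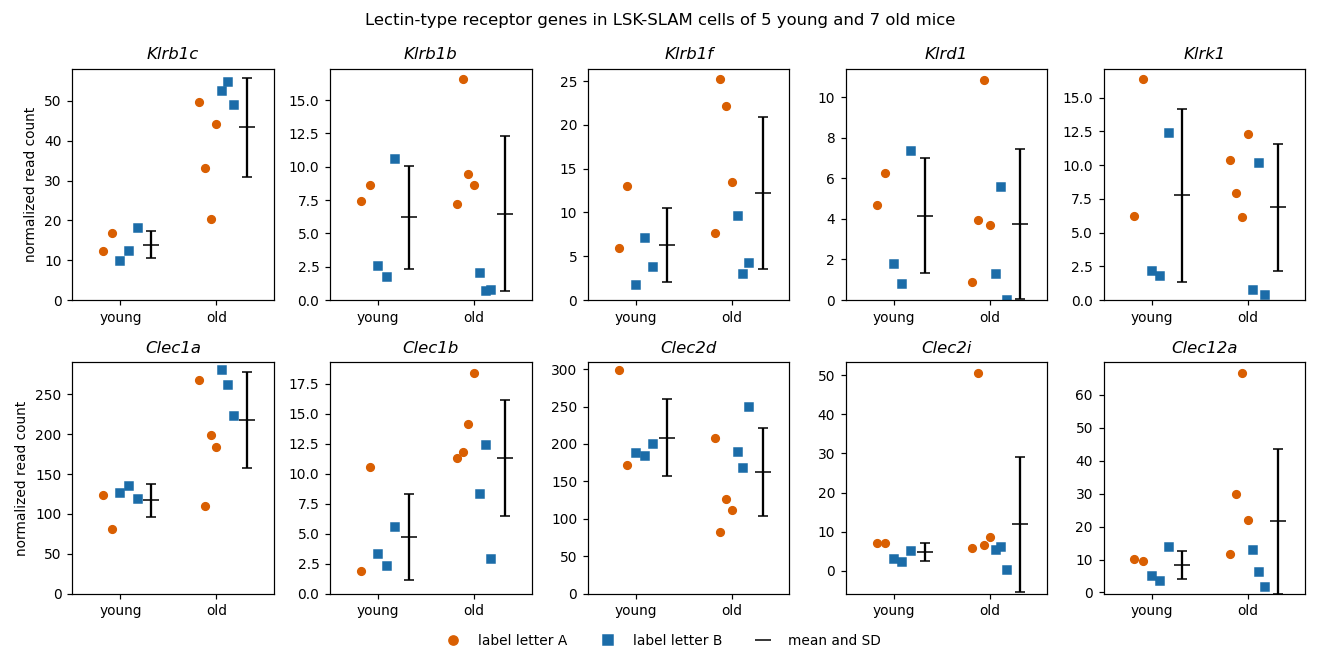
Normalized read counts of the 10 genes in each of 5 young and 7 old mice, with orange circles for label letter A, blue squares for letter B, and black bars for the mean and SD of each age. The 7 old mice all lie above the young mice for *Klrb1c*, whereas the ages overlap for the other 9 genes.

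The other NKR-P1 receptors did not separate the ages. *Klrb1b* (chr6:128813706-128826331, minus strand) encodes an inhibitory receptor that recognizes the product of *Clec2d*. Its normalized read counts were 7.47, 8.65, 2.55, 1.77 and 10.6 in young mice 1 to 5 and ran from 0.653 to 16.6 with a median of 7.23 in old mice. Means were 6.20 ± 3.86 (SD, n = 5) and 6.47 ± 5.80 (SD, n = 7), a ratio of 1.04. The lowest values were those of old mice 3 and 4, with 2 and 4 reads. *Klrb1f* (chr6:129045901-129057464, plus strand) encodes a receptor that binds the product of *Clec2i*. Its values were 5.91, 13.0, 1.77, 7.06 and 3.82 in young mice and ran from 2.94 to 25.3 with a median of 9.61 in old mice. The highest were those of old mice 5 and 6, at 25.3 and 22.2, and without these the old mean was 7.61 ± 4.24 (SD, n = 5), against 6.31 ± 4.24 in young mice (SD, n = 5).

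*Klrd1* (chr6:129591782-129598775, plus strand) encodes CD94, which pairs with NKG2 proteins to read the non-classical class I molecule Qa-1. Normalized read counts were 4.67, 6.25, 1.77, 0.785 and 7.34 in young mice 1 to 5 and ran from 0 to 10.9 with a median of 3.69 in old mice. No read was found in old mouse 4, which allows a normalized read count of up to 0.583 there. *Klrk1* (chr6:129610323-129623864, minus strand) encodes NKG2D, an activating receptor for stress-induced ligands. Its values were 6.22, 16.3, 2.16, 1.77 and 12.3 in young mice and ran from 0.389 to 12.3 with a median of 7.89 in old mice. Both genes had nearly the same mean in both ages, with ratios of old to young of 0.900 for *Klrd1* and 0.883 for *Klrk1*, and the values overlapped widely. In a fit with a minimum mean of 1, the log2 fold changes were -0.30 ± 0.65 (SE) and -0.20 ± 0.71 (SE).

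Of the Clec2 ligand genes, *Clec2d* (chr6:129180615-129186534, plus strand) was the most abundant member. It encodes Clr-b, a protein found on most blood cells that engages the inhibitory receptor encoded by *Klrb1b*. Normalized read counts were 298, 172, 188, 184 and 200 in young mice 1 to 5 and ran from 82.1 to 249 with a median of 168 in old mice. The ages overlapped, and the means were 209 ± 51.2 (SD, n = 5) and 162 ± 58.6 (SD, n = 7). The log2 fold change of -0.42 ± 0.25 (SE) was -0.86 ± 0.38 (SE) in mice with letter A alone and 0.07 ± 0.17 (SE) in mice with letter B alone, and the test of that difference, given below, did not pass. The lowest old values, 82.1, 112 and 127, were those of old mice 5, 7 and 6. The summed stem cell markers were also lowest in old mice 5 and 7, and the part of these libraries in the difference was not tested. Without old mice 5 and 6 the log2 fold change was -0.19 ± 0.22 (SE).

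*Clec2i* (chr6:128887588-128898167, plus strand) encodes Clr-g, a ligand of the receptor encoded by *Klrb1f*. In young mice 1 to 5 it was at 7.15, 7.21, 2.94, 2.16 and 4.99 normalized read counts. In old mice they ran from 0.194 to 50.5 with a median of 6.20. The highest value, from 64 reads, was that of old mouse 5, and the other 6 old mice lay at or below 8.61. The mean of the old mice was 11.9 ± 17.2 (SD, n = 7) with and 5.47 ± 2.82 (SD, n = 6) without that mouse, against 4.89 ± 2.33 in young mice (SD, n = 5).

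*Clec1a* (ENSMUSG00000033082, chr6:129424772-129452000, minus strand) encodes CLEC-1, a receptor known from endothelial and myeloid cells. The normalized read counts were 123, 81.7, 126, 135 and 119 in young mice 1 to 5 and ran from 110 to 280 with a median of 223 in old mice. Of the 7 old mice, 6 were above every young mouse, and the exception was old mouse 5. The ratio of the means was 1.86. These values rest on 140 to 1145 reads per mouse. Without old mice 5 and 6, the mean of the other old mice was 243 ± 39.8 (SD, n = 5) and the log2 fold change was 1.05 ± 0.18 (SE), compared with 0.85 ± 0.22 (SE) over all mice. When the letter was added as a covariate, 0.283% of all genes were called higher in old mice, and *Clec1a* was among them, with a log2 fold change of 0.92 ± 0.20 (SE). As for *Klrb1c*, nothing is read from this, since the gene was chosen from the same contrast. In mice with letter B the old values were all above the young ones, and with letter A they overlapped. In groups this small a lack of overlap can arise by chance. Its share among all genes was not determined within a letter, so nothing is read from it.

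*Clec1b* (chr6:129397297-129409335, plus strand) encodes CLEC-2, the podoplanin receptor of platelets and megakaryocytes. Its normalized read counts were 1.87, 10.6, 3.34, 2.35 and 5.58 in young mice 1 to 5 and ran from 2.92 to 18.4 with a median of 11.8 in old mice. Of the 7 old mice, 5 were above every young mouse, and the ratio of the means was 2.39. With letter A the 4 old mice were all above the 2 young ones, and with letter B the ages overlapped. Nothing is read from this split either, since these groups were small and the share of all genes was not determined. In the fit with a minimum mean of 1 the log2 fold change was 1.17 ± 0.55 (SE). The summed level of 13 megakaryocyte and platelet markers was 777 to 1110 in the young and 967 to 1994 in the old mice, and its part in the values of *Clec1b* was not tested. Exons of *Clec1b* overlap those of *Clec9a*, and 3.23% of its 50-base words occur in another gene.

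*Clec12a* (ENSMUSG00000053063, chr6:129342691-129365303, plus strand) encodes an inhibitory receptor of monocytes and granulocytes. Young mice 1 to 5 had normalized read counts of 10.3, 9.61, 5.10, 3.34 and 13.8. In old mice they ran from 1.75 to 66.6 with a median of 12.9, so that the old mice enclosed the young ones on both sides. The gene passed the minimum mean of 10 through the old mice, since its young mean was 8.43 ± 4.20 (SD, n = 5). The 3 highest values, 66.6, 29.99 and 22.1, were those of old mice 6, 5 and 7. The summed myeloid markers had the same 3 highest mice in the same order, at 4871, 1650 and 1242. Of those markers, *Mpo*, a granule enzyme named here after its values were seen, reached 651 in old mouse 6. The part of these markers in the level of *Clec12a* was not tested, and in bulk RNA more cells of a type and more RNA per cell cannot be told apart. Without old mice 5 and 6 the old mean was 10.9 ± 7.69 (SD, n = 5), and the log2 fold change was 0.16 ± 0.65 (SE) compared with 0.80 ± 0.66 (SE) over all mice.

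**Figure D3:**
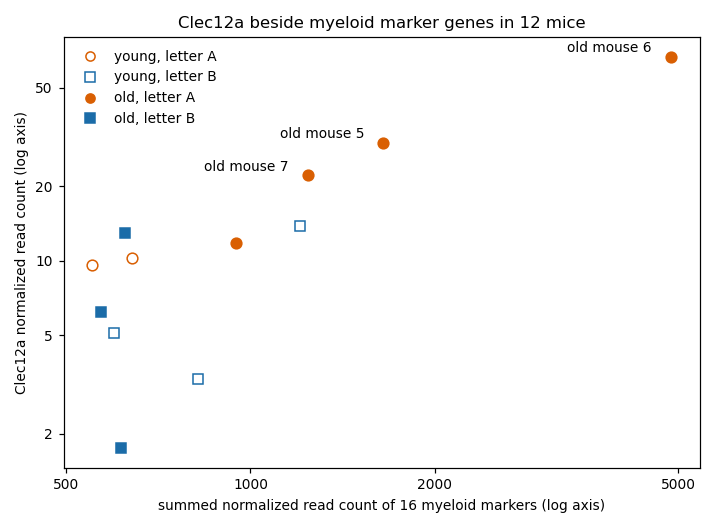
*Clec12a* in each of 12 mice (vertical log axis, normalized read count) against the summed normalized read count of 16 myeloid markers (horizontal log axis), with open symbols for young and filled symbols for old mice, and circles for letter A and squares for letter B. Old mice 6, 5 and 7 lie highest on both axes.

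The label letter, which played no part in the choice of the members, was tested with age in the model. *Clec12a* was lower in mice with letter B (log2 difference -1.48 ± 0.50 SE, limma adjusted p = 0.0230), at 7.18 ± 5.02 (SD, n = 6) against 25.1 ± 21.9 with letter A (SD, n = 6). It was the 1 member of the 4 tested that was called lower in mice with letter B, and 25.6% of all genes were. It had passed the minimum mean of 10 through the mice with letter A, since its mean with letter B was below 10, and with a minimum mean of 1 it was also called (-1.48 ± 0.48 SE, limma adjusted p = 0.0174). The call did not remain without old mouse 6 (-1.19 ± 0.53 SE, limma adjusted p = 0.0742), without old mouse 4 (-1.06 ± 0.46 SE, limma adjusted p = 0.0859) or without old mice 5 and 6 (-0.99 ± 0.56 SE, limma adjusted p = 0.185). No member was called higher with letter B, where 10.5% of all genes were, and 1 (*Clec1a*) had an unadjusted p under 0.05 in that direction. That cut was met by 5828 of all 12354 genes in either direction. The edgeR quasi-likelihood test and DESeq2 called *Clec12a* lower as well, and no member higher. The log2 differences were 0.42 ± 0.19 (SE, limma adjusted p = 0.0851) for *Clec1a*, 0.29 ± 0.22 (SE, limma adjusted p = 0.296) for *Clec2d* and 0.27 ± 0.27 (SE, limma adjusted p = 0.450) for *Klrb1c*.

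Rescaling the libraries by median ratios moved the median log2 difference between the letters over all genes by 0.29. The split of the calls changed with it, from 1301 higher and 3161 lower to 3360 higher (27.2% of genes) and 2536 lower (20.5% of genes) with letter B. *Clec12a* stayed lower under that scaling (-1.22 ± 0.47 SE, limma adjusted p = 0.0330), and *Clec1a* was then called higher with letter B (0.72 ± 0.23 SE, limma adjusted p = 0.0138). The median of all genes was -0.09 before and 0.21 after rescaling. Relative to it, *Clec12a* was at -1.39 and -1.43 and *Clec1a* at 0.51 and 0.52.

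With a minimum mean of 1, all 10 members could be tested, and 4 of the 6 low ones were called lower with letter B, beside *Clec12a*, in a fit that called 29.0% of 17647 genes lower and in which the median log2 difference of all genes was -0.47. They were *Klrb1b* (log2 difference -1.79 ± 0.52 SE, limma adjusted p = 0.00953), *Klrk1* (-1.504 ± 0.56 SE, limma adjusted p = 0.0334), *Clec2i* (-1.42 ± 0.56 SE, limma adjusted p = 0.0435) and *Klrb1f* (-1.29 ± 0.48 SE, limma adjusted p = 0.0332). *Klrd1* and *Clec1b* did not pass, at -0.93 ± 0.58 (SE, limma adjusted p = 0.191) and -0.66 ± 0.49 (SE, limma adjusted p = 0.272). Of the 17647 genes in that fit, 12354 had a mean of 10 or more. The share called lower among low genes alone was not determined, so 29.0% is not a share of genes as low as these members. For *Klrb1b*, 5 of 6 mice with letter B were below every mouse with letter A, and the exception was young mouse 5 at 10.6. The differences of the mean log2 values between the letters, taken without age in the model, were also negative for the 4 called low genes after rescaling by median ratios. They ran from -1.12 for *Klrb1f* to -1.48 for *Klrb1b*. Markers of several cell types differed between the letters as well. With letter A and letter B, the summed NK cell markers were 174 to 260 and 97.3 to 177, the T cell markers 128 to 319 and 34.2 to 123, and the B cell markers 128 to 199 and 70.2 to 128. The myeloid markers were at 552 to 4871 with letter A and 569 to 1206 with letter B. In the main fit, 25.6% of all genes were called lower with letter B and 10.5% higher, shares that changed with rescaling as given above. Of the 7 NK cell markers tested in it, 4 were called lower and none higher. The stem cell markers lay the other way, at 2107 to 5390 with letter A and 5056 to 7278 with letter B, and 5 of 13 were called higher and none lower. Calls went both ways among 9 endothelial markers (2 higher, 3 lower) and 11 megakaryocyte and platelet markers (3 higher, 1 lower). The part of depth or of other cells in the differences of the members was not tested.

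**Figure D4:**
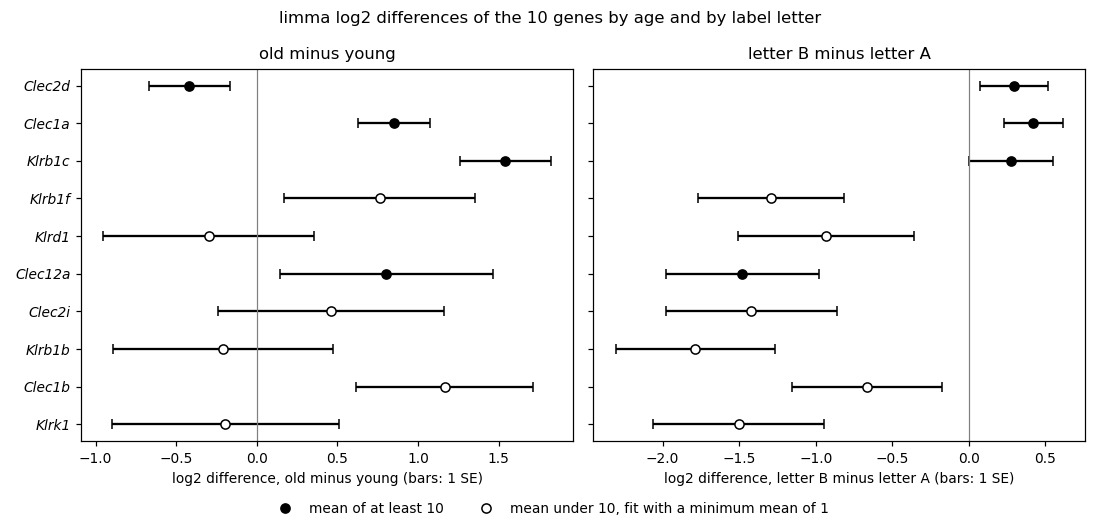
Log2 differences from limma for the 10 genes, old minus young on the left and letter B minus letter A on the right, with bars of 1 SE. Filled points are the 4 genes whose mean was 10 or more and open points the 6 lower ones, fitted with a minimum mean of 1. *Klrb1c* has the largest difference between the ages, and the 6 low genes and *Clec12a* lie below 0 on the right.

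Whether the age difference itself differed between the letters was tested with an interaction term. None of the 4 members was called (limma), where 0.0162% of all genes were. At an unadjusted p under 0.05 there was 1 member, and there were 424 of all 12354 genes. The edgeR quasi-likelihood test on the recovered reads likewise called 0 members. It had 1 member and 402 of all genes at an unadjusted p under 0.05. In both tests that member was *Clec2d*, with a difference of 0.92 ± 0.42 (SE, limma adjusted p = 0.9998). Without young mouse 1, in which *Clec2d* was highest, the difference was 0.53 ± 0.48 (SE, limma adjusted p = 0.9998). For *Klrb1c* the difference was 0.70 ± 0.55 (SE, limma adjusted p = 0.9998), for *Clec1a* it was 0.15 ± 0.40 (SE, limma adjusted p = 0.9998) and for *Clec12a* it was -1.53 ± 0.99 (SE, limma adjusted p = 0.9998). With these errors, a difference between the letters of up to 1.79 for *Klrb1c* lies within the 95% interval of the estimate.

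Relatives, ligands and signalling partners of the members were examined as lists. Of 93 such genes with a row, 48 had a mean of at least 10, and none was called for age by limma, edgeR or DESeq2, where limma called 0.105% of all genes in either direction. At an unadjusted p under 0.05 there were 4 with limma and with edgeR's quasi-likelihood test and 6 with DESeq2. At that cut there were 488 of all 12354 genes with limma, 489 with edgeR and 592 with DESeq2. Among other genes of the complex, 27 of 33 had a row and 3 were tested. They were *Klri2*, another Klr receptor gene, at 12.3 ± 9.71 (SD, n = 5 young) and 11.9 ± 9.48 (SD, n = 7 old), *Clec9a*, a receptor of dendritic cells for dead cells, at 8.01 ± 4.09 and 14.5 ± 11.7, and *Olr1*, a scavenger receptor for oxidized lipoprotein, at 6.71 ± 2.49 and 13.3 ± 12.7. Their median log2 fold change was 0.13 with limma, 0.84 with edgeR and 0.84 with DESeq2, against -0.02, 0.03 and 0.03 over all genes. *Clec9a* and *Olr1* reached the mean of 10 through the old mice, so that the filter itself favours a positive median here, and nothing is read from it.

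Among C-type lectin genes outside the complex, 19 of 33 with a row were tested, with a median log2 fold change of 0.35, against -0.02 over all genes. With the letter as a covariate these medians were 0.17 and -0.05. Here too a gene can reach the mean of 10 through the old mice, so nothing is read from the median. The most abundant were *Cd93*, with 434 ± 99.4 (SD, n = 5 young) and 362 ± 96.7 (SD, n = 7 old), *Cd44*, the hyaluronan receptor, with 280 ± 43.7 and 274 ± 78.5, and *Ly75*, an endocytic receptor, with 106 ± 20.3 and 100.03 ± 31.8. The largest log2 fold changes were those of *Colec10*, a secreted collectin (1.01 ± 0.65 SE, limma adjusted p = 0.9997), and *Clec14a*, an endothelial lectin (0.95 ± 0.32 SE, limma adjusted p = 0.780). Neither passed the test, and *Colec10* reached the mean of 10 through the old mice (7.79 ± 5.75, SD, n = 5 young, and 19.8 ± 14.5, SD, n = 7 old).

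Of the ligands that are not lectins, 7 of 11 had a row and 3 were tested, with a median log2 fold change of -0.09. *H2-T23*, which encodes the Qa-1 molecule read by CD94, was at 176 ± 47.7 (SD, n = 5 young) and 179 ± 81.8 (SD, n = 7 old). The NKG2D ligand genes *Ulbp1* and *H60c* were at 36.1 ± 11.0 and 9.12 ± 7.96 in young and at 29.4 ± 12.7 and 16.6 ± 13.8 in old mice. Of 26 adaptors and signalling genes, 23 were tested, with a median of -0.06. The most abundant were *Pik3r1*, a regulatory subunit of PI3 kinase (629 ± 110, SD, n = 5 young, and 764 ± 225, SD, n = 7 old), *Plcg2*, a phospholipase (390 ± 97.2 and 461 ± 163), and *Inpp5d*, which encodes the phosphatase SHIP1 (281 ± 41.1 and 232 ± 80.3). The largest log2 fold changes were 0.61 ± 0.39 (SE, limma adjusted p = 0.9997) for *Sh2d2a*, a T cell adaptor, and -0.54 ± 0.34 (SE, limma adjusted p = 0.9997) for *Btk*, a tyrosine kinase.

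Since *Klrb1c* is a marker of NK cells, other NK cell genes were compared in the same mice. The summed normalized read count of the 14 NK cell markers with a row, none of them a member, ran from 97.3 to 212 in young mice and from 104 to 260 in old mice. The log2 difference of 0.20 had p = 0.434 in an exact two-sided permutation test over the 792 possible splits, and 0.880 after adjustment over 8 marker lists. The markers with the highest means were *Il18rap*, an interleukin receptor subunit (54.8 ± 14.1, SD, n = 5 young, and 63.0 ± 15.97, SD, n = 7 old), *Ctsw*, a protease (19.8 ± 7.47 and 33.4 ± 14.4), and *Nkg7*, a granule protein (20.7 ± 11.9 and 12.01 ± 6.83). None of the 14 was at 0 in every mouse, but 7 had a mean under 10, among them *Ncr1*, which encodes the NK cell receptor NKp46 and had values of 2.16 to 12.6 in the young and 0 to 17.2 in the old mice. *Ncr1* was named after its values were seen. By letter, the NK sums were 174 to 212 in young and 186 to 260 in old mice with letter A. With letter B they were 97.3 to 177 in young and 104 to 168 in old mice. The part of NK cells in the values of *Klrb1c* was not tested.

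The other marker lists did not pass the same test with adjusted p-values over the 8 lists (exact permutation, 5 young and 7 old mice). The log2 differences, old minus young, were 0.74 for megakaryocyte and platelet markers (exact p = 0.00758, adjusted p = 0.0606; 0.17 and adjusted p = 0.848 as the mean of log2 values over the list), 0.60 for myeloid markers (exact adjusted p = 0.880), 0.43 for erythroid markers (exact adjusted p = 0.880), 0.28 for T cell markers (exact adjusted p = 0.880), 0.09 for B cell markers (exact adjusted p = 0.880), -0.01 for endothelial markers (exact adjusted p = 0.912) and -0.13 for stem cell markers (exact adjusted p = 0.880). The number of splits, 792, with the smaller tail doubled, sets a lower limit to these p-values. Summed endothelial markers, of interest for *Clec1a*, were 625 to 749 in the young and 546 to 785 in the old mice.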

How the data were processed

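LSK-SLAM RNA-seq values of 12 mice were analysed. The labels list 24 samples, 2 per mouse, and the authors deposited 1 column per mouse, a signal in which a gene's reads were scaled to the library size and to an upper-quartile factor and expressed per 1000000. Submitters' processing notes name the mm10 build, FastQC 0.11.8, STAR 2.5.4b and edgeR 3.24.3. The counting tool and its strand setting are not given in the sources used here. Whole reads were recovered from 100% of the values (tolerance 0.01 reads). Depth, counted as recovered reads on genes, was 0.861 to 5.12 M (1000000) per mouse, and low values are least precise in the shallow libraries. The text of the study gives a much higher number of sequenced reads, and the gap was not examined. The deposited table with the authors' own fold changes and p-values was not used.

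Members and lists were chosen with earlier results of these data known. The main fits used limma 3.58.1 in R 4.3.3 (linear models with a moderated, trended variance) on log2(value + 1) over the 12354 genes whose mean was 10 or more, Benjamini-Hochberg adjusted and called under 0.05. Fold changes on this scale understate those of low genes. Each mouse was 1 replicate. Same-numbered young and old mice were treated as unpaired in the main fits. The correlations of their deviations ran from -0.56 to 0.61 (mean 0.14). They were not compared with those of other pairs and do not settle whether the mice were paired. Count tests were edgeR 4.0.16 and DESeq2 1.42.0. Marker sums were compared with exact permutation tests. Genes named from the 4 lists of relatives, ligands and signalling genes are, for each list, the 3 with the highest mean, the 2 with the largest change, and any called for age, and from the NK cell markers the 3 with the highest mean. Alternatives were other pseudocounts and minimum means, no trend, the label letter, a replicate block, median-ratio rescaling, the count tests, and 1 mouse at a time left out. The edgeR likelihood-ratio tests, replicates 1 to 5 without the block, and leaving out old mice 5 and 6 were added after seeing the data. GENCODE vM21, which held 18745 of the 18762 identifiers, gave positions and shared words.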

Additional observations from a re-analysis of the deposited data

Results flagged for a closer look

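Single mice that stood apart from the others of their age were looked for with Dixon's criterion in 36 groups (10 genes and 8 marker lists, 2 ages), and 4 were found. Chance alone gives about 1.8 if the groups are independent and their values normally distributed. The groups share the same mice and the values were not on a log scale, so no excess over chance is read from the 4. *Clec2d* was 298 in young mouse 1, where the other young mice lay between 172 and 200. *Clec2i* was 50.5 in old mouse 5, where the other old mice lay between 0.194 and 8.61. In old mouse 6 the summed myeloid markers were 4871 (569 to 1650 in the other old mice), and the summed erythroid markers were 1020 (97.2 to 485). The causes of these values were not tested.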

How the results depend on the processing

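The count of members called for age was 1 and the gene was *Klrb1c*. It was 0 with no filter on low values, with no trend, in mice with letter A alone and after median-ratio rescaling, and 2, with *Clec1a* added, with the letter as a covariate, in mice with letter B alone, with DESeq2 and, added after seeing the data, with edgeR's likelihood-ratio test with the letter as a covariate and without old mice 5 and 6. Leaving out 1 mouse gave 0 to 2 members called for age. The replicate block over replicates 1 to 5 left 1 member called, as did the same mice without the block. Over all genes, 19 were called for age with the block and 8 in the same mice without it. The log2 fold change stayed positive for *Klrb1c* (1.22 to 1.92) and *Clec1a* (0.73 to 1.05) under all 28 alternatives, whereas that of *Clec2d* ran from -0.86 to 0.07 and that of *Clec12a* from -0.17 to 1.36. For the letter, 1 member was called, against 5 with a minimum mean of 1, 4 with no filter on low values, 2 after median-ratio rescaling, 0 without old mice 5 and 6, and 0 to 2 when 1 mouse was left out. The log2 difference of the megakaryocyte and platelet markers was 0.70 (exact permutation, adjusted p = 0.364) after median-ratio rescaling and 0.17 (exact adjusted p = 0.848) as a mean of log2 values, and no marker list passed the test under either. No alternative called a member for the interaction or a relative for age. A lower minimum mean adds members to those tested by construction, and the cause of the changes in the calls was not tested. Depth limits the 6 low members, which had 0 to 64 reads in a mouse.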
